A study of Mus musculus with 9 samples.

Results

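Collagen genes were selected from the deposited table by symbol, as Col followed by a number, the letter a and a number with nothing after it. The rule found 43 of 37980 genes, all of them protein-coding. RNA came from stem cells of the hair follicle of C57BL/6J males, a standard inbred strain with no engineered allele and no treatment in the labels. Mice were 3 months, 19 months or 24 months old, with 3 libraries per age. The cells came from back and belly skin and were sorted for high CD49f, an integrin of the basal layer, and for CD34, a surface protein of the follicle bulge. Levels are the authors' FPKM, fragments assigned to a gene relative to gene length and library size. Different genes can be set side by side only roughly, since this scaling does not remove errors in the estimate of a single gene. Summed FPKM of a library ran from 553388 to 738569 over protein-coding rows and from 8704872 to 68767512 over all rows. The labels do not say whether the libraries of an age came from different animals or from pooled ones, and p-values measure no more than their spread, which may be technical.

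Collagens are built from 3 polypeptide chains that wind around each other, and each gene encodes 1 type of chain. Chains carry long runs of a repeat in which glycine recurs at a fixed spacing, are hydroxylated and glycosylated in the endoplasmic reticulum, and are then secreted as fibrils, sheets, beaded filaments or membrane-anchored proteins. Skin fibroblasts make most of the fibrillar collagen of the dermis. Epithelial cells contribute collagens of the basement membrane zone. Among these is collagen XVII, a transmembrane component of the hemidesmosome that is known for its part in keeping follicle stem cells in place.

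Promoter windows from RefSeq (build GRCm38.p6, 250 bases before to 50 after the start of the gene) were matched by symbol for 35 of the 43 genes, in 38 windows. The 8 genes without an entry were Col12a1, Col14a1, Col1a1, Col22a1, Col2a1, Col4a3, Col5a2 and Col9a3. The windows of 4 genes are printed as examples. Col17a1 was the most abundant member, and Col1a2 passed the test over ages. Col4a1 and Col4a2 are a pair of chains transcribed from opposite strands. The 4 windows lie at chr19:47691993-47692292 on the minus strand, chr6:4505368-4505667 on the plus strand, chr8:11312777-11313076 on the minus strand and chr8:11312555-11312854 on the plus strand, in that order. Capitals mark matches on either strand to CCAAT (the CCAAT box), GGGCGG (the GC box), TATAAA (the TATA box) and TGANTCA (the AP-1 site).
Col17a1: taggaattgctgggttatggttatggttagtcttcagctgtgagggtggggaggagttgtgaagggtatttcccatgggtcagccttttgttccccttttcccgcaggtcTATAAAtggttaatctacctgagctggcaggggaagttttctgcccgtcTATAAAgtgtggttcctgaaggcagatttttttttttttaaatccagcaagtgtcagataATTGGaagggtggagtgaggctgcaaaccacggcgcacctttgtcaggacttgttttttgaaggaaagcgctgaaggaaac
Col1a2: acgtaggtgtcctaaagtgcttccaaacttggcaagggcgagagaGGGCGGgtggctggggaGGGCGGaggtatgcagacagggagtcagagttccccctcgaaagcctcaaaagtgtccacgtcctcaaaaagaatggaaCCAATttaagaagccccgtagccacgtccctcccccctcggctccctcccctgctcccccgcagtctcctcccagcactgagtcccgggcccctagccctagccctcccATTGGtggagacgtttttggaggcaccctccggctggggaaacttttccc
Col4a1: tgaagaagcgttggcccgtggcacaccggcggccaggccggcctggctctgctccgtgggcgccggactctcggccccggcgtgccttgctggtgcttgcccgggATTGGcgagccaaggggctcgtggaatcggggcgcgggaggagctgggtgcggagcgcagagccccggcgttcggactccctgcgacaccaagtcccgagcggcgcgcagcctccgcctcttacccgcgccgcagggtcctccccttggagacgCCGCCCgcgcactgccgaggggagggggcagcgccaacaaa
Col4a2: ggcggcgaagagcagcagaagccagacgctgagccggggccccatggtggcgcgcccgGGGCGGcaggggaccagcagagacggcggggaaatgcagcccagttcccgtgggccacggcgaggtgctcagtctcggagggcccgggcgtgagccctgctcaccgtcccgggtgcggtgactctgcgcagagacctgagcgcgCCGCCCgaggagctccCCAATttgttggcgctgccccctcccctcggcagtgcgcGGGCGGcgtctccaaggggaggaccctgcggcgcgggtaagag
The Col4a1 and Col4a2 windows shared 78 bases, each read from the opposite strand. Col17a1 held 2 matches to TATAAA and none of GGGCGG, while the Col4a1 and Col4a2 windows held 1 and 3 matches to GGGCGG and none of TATAAA. The share of G or C was 46.3% for Col17a1, 61.0% for Col1a2, 74.0% for Col4a1 and 73.7% for Col4a2. GGGCGG was found in 23 of the 38 collagen windows (60.5%) and in 35.7% of all 32851 windows of that length. CCAAT was found in 34.2% of the collagen windows and 37.4% of all windows, TATAAA in 13.2% and 13.6%, and TGANTCA in 2.63% and 7.81%. A match describes letters in the window and is not evidence that a factor binds there. No test between ages used the windows. By gene order in RefSeq, 8 pairs of members were immediate neighbours, including Col4a1 with Col4a2, Col4a4 with Col4a3, Col4a6 with Col4a5, Col6a2 with Col6a1 and Col3a1 with Col5a2.

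Read depth is not recorded in the table, so no counting interval or detection limit was computed. In 36 rows of the table, none of them a collagen, all libraries of 1 age had an FPKM of exactly 0 and all of another age reached 5 FPKM or more. An exact 0 is therefore given below only as a listing. Library numbers in the labels formed 1 run for 3 months and a separate run for both later ages, so a batch difference between 3 months and the others cannot be told apart from age. The sort was checked against its markers. Cd34 and Itga6, which encodes CD49f, stood at means of at least 472 and 84.5 FPKM at every age, Krt14 was above both. Krt15 was listed at 0 in all 9 libraries and Krt5 in the 3 of 19 months. Of 7 bulge markers tested, 2 passed at 19 against 3 months, 1 at 24 against 3 and 0 at 24 against 19 months. The shares of all genes were 1.56%, 3.84% and 0.93%. Lgr5 was lower at 24 against 3 months (log2 -1.01, limma adjusted p = 0.00581, kept in all 9 fits that left out a library). Sox9 and Nfatc1 were higher at 19 against 3 months (0.66 and 0.78, adjusted p = 0.0348 and 0.0264, each kept in 5 of the 9). Of 12 fibroblast markers, 8 stayed under 1 FPKM in every library, among them the receptors Pdgfra and Pdgfrb and the proteoglycan lumican (Lum). Fbln1, fibulin 1, was the exception at 39.9 to 59.1 FPKM. The 11 fibroblast markers other than Fbln1 summed to 4.95 to 5.74 FPKM at 3 months, 3.44 to 4.38 at 19 months and 5.32 to 10.5 at 24 months, a sum chosen after its values were seen. Of the 12, 3 were tested and none passed at any comparison with limma. At an unadjusted p under 0.05 there were 1, 2 and 2, beside 15.7%, 21.6% and 12.8% of all genes. Of the other cell types checked, Acta2 (smooth muscle) passed higher and Egfl7 (endothelium) lower at 24 against 3 months. Tyrp1 (melanocyte) passed lower at both later ages against 3 months. Fcer1g (immune) passed lower at 19 against 3 months and higher at 24 against 19 months. In that order, these were 1 of 2, 1 of 1, 1 of 4 and 1 of 5 markers tested for their cell type. The calls of Acta2 and Egfl7 were each kept in 5 of 9 fits that left out a library, both calls of Tyrp1 in 6, and those of Fcer1g in 4 and 9. Tyrp1 was absent from the fit that required 1 FPKM in at least 6 libraries. It may thus have entered the test through its 3-month libraries, in which case its lower calls support nothing. All of these calls on bulge and other markers were lost with all rows of the table and without the filter on low values. Summed smooth muscle markers ran from 2.22 to 3.44 FPKM at 3 months and 4.83 to 7.23 at 24 months. Summed melanocyte markers ran from 12.2 to 17.9 and 4.19 to 9.20. Of suprabasal keratinocyte, Schwann cell and adipocyte markers 6, 3 and 1 were tested, and none passed a comparison. Summed suprabasal markers were far higher than those of smooth muscle or melanocytes. They ran from 1990 to 2941 FPKM at 3 months, 2398 to 3203 at 19 months and 2235 to 3953 at 24 months. The part of these cell types in the results below was not tested. Fewer cells of a type and less RNA per cell cannot be told apart in these bulk samples.

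The collagen profile was dominated by Col17a1, while Col1a1 and Col3a1, the main fibrillar collagens of dermis, averaged 0.923 and 0.0720 FPKM. Over the 9 libraries, 5 members averaged at least 20 FPKM (Col17a1, Col6a1, Col8a2, Col18a1 and Col12a1), 7 averaged 5 to 20 FPKM, 5 averaged 1 to 5 FPKM and 26 averaged under 1 FPKM. Of those 26, 22 stayed under 1 FPKM in every library, and Col9a1 and Col13a1 were listed at 0 in all 9. Col17a1 alone made up 50.6% to 59.8% of the summed collagen FPKM of a library. Together with Col6a1, Col8a2, Col18a1, Col12a1 and Col5a2 it made up 85.9% to 89.7%. The median of mean FPKM over the 11509 genes tested was 10.9, and 327 of them were at or above Col17a1.

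**Figure D1:**
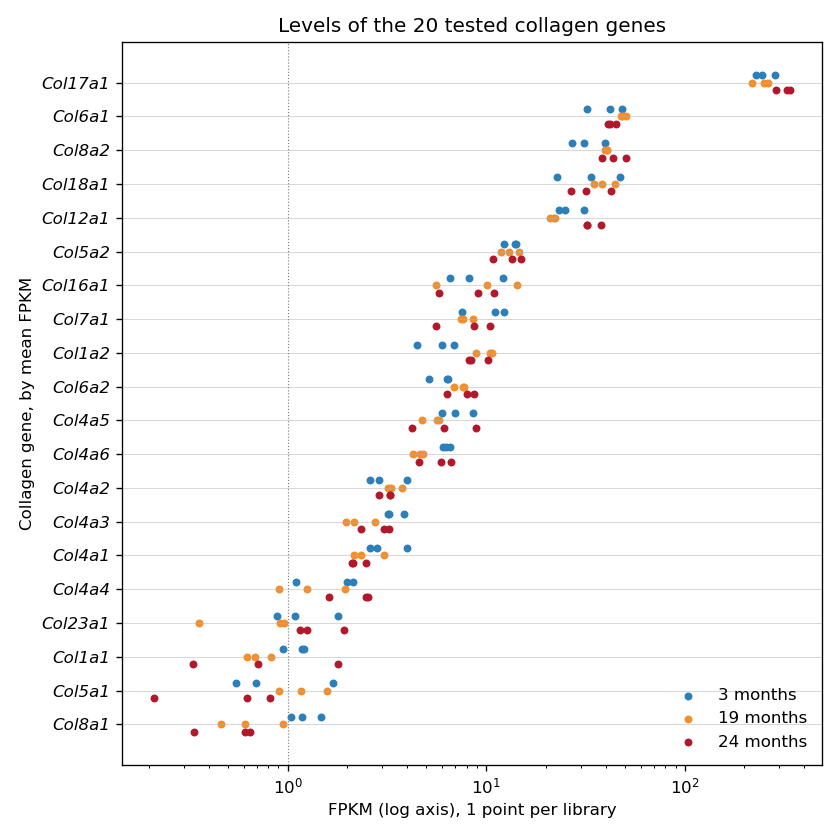
FPKM of the 20 tested collagen genes on a log axis, with 1 point per library coloured by age and the dotted line at 1 FPKM. Col17a1 sits at 219.8 to 340.2 FPKM, well apart from Col6a1 at 32.3 to 50.9 FPKM, and the points of the 3 ages lie close together for most genes.

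Testing was limited to the 20 members that reached 1 FPKM in 3 or more libraries. The other 23 are described by level only. Just inside that limit were Col8a1, Col5a1 and Col1a1, which reached 1 FPKM in 3 libraries each and averaged 0.813, 0.917 and 0.923 FPKM, and just outside it was Col14a1, which reached 1 FPKM in 1 library. Differences were taken on the log2(FPKM + 1) scale with limma, where changes of low genes appear smaller than they are, over 11509 protein-coding genes and Benjamini-Hochberg adjustment.

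Between ages no tested collagen gene passed a single comparison, and the share with small changes was near that of all genes. Standard errors of 0.14 to 0.29 on the log2 scale mean that modest changes could be missed. At 19 against 3 months, 0 of the 20 tested members passed limma at an adjusted p of 0.05, where 1.56% of all tested genes did (0.6% higher and 0.964% lower). At 24 against 3 months and at 24 against 19 months limma's count was again 0, beside 3.84% and 0.93% of all genes. At an unadjusted p under 0.05 the test held 4, 5 and 4 members in these comparisons, beside 15.7%, 21.6% and 12.8% of all genes. The F test for a difference at any age passed 2 of the 20 members, Col12a1 and Col1a2, beside 4.54% of all genes, and 21.4% of all genes had an unadjusted p under 0.05 in it. Changes above 0 were found for 8, 9 and 11 of the 20 members, beside 50.8%, 49.5% and 46.8% of all genes. Median log2 changes of the 20 members were -0.13, -0.03 and 0.03, and those of all genes tested were 0.0059, -0.0037 and -0.018. Changes of the members at 19 against 3 months ran from -0.43 to 0.71, and 19 of 20 lay within 0.5 in either direction, as did 92% of all genes. At 24 against 3 months they ran from -0.55 to 0.56, with 18 of 20 within 0.5, beside 89% of all genes.

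**Figure D2:**
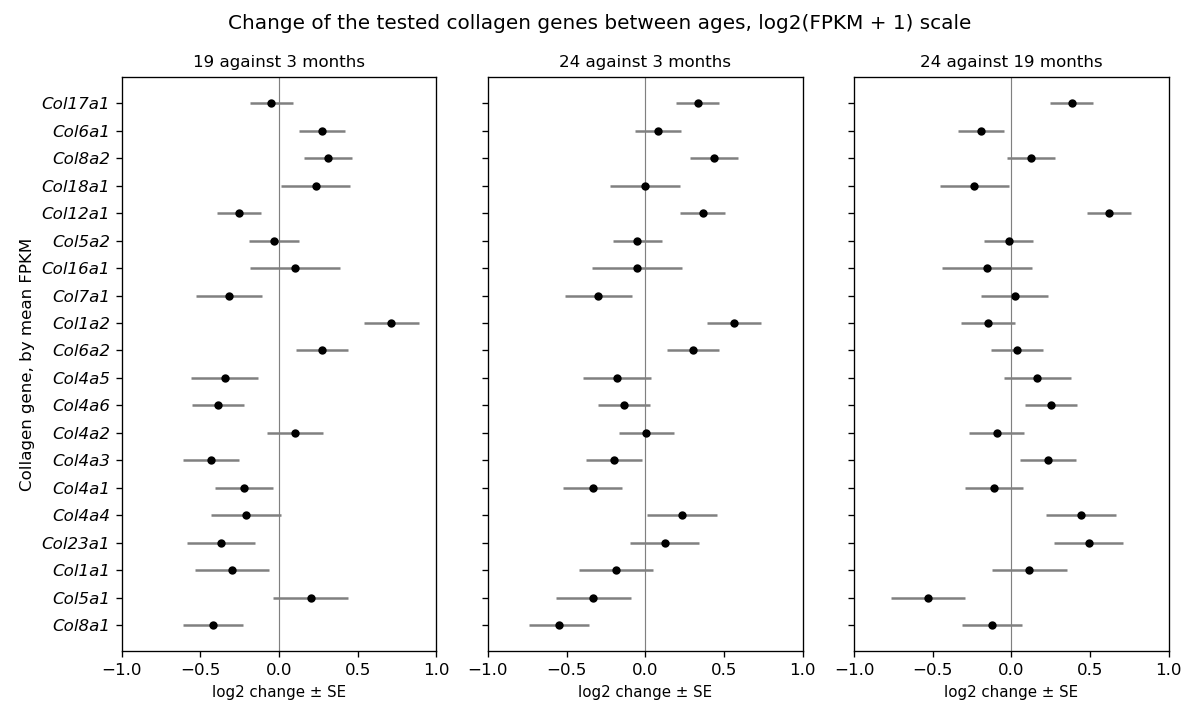
The log2 change of each tested collagen gene in the 3 comparisons of ages, with limma's standard error as bars. A bar clear of 0 is not a passed comparison, and none of these passed. The largest changes are those of Col1a2 at 19 against 3 months (0.71) and Col12a1 at 24 against 19 months (0.62).

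Collagen XVII is the main transmembrane collagen of basal keratinocytes. Col17a1 stood at 228, 246 and 285 FPKM in the 3-month libraries, at 262, 219.8 and 251 at 19 months and at 326, 289.6 and 340.2 at 24 months. All 3 libraries of 24 months lay above all 6 younger ones, while 3 and 19 months overlapped. The log2 change was 0.33 ± 0.14 (SE) at 24 against 3 months (limma adjusted p = 0.168, fold 1.26 with a 95% interval of 1.03 to 1.54). At 24 against 19 months it was 0.38 ± 0.14 (adjusted p = 0.229), and at 19 against 3 months -0.05 ± 0.14 (adjusted p = 0.894, interval of the fold 0.791 to 1.18). No comparison passed. Across all genes, 10.6% had 24-month libraries all above the 3-month ones. Col23a1, another transmembrane collagen, stood at 0.889 to 1.79 FPKM at 3 months, 0.360 to 0.958 at 19 months and 1.15 to 1.92 at 24 months, and its largest log2 change was 0.49 ± 0.22 at 24 against 19 months (adjusted p = 0.359). Col25a1 was at most 0.0588 FPKM.

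Fibril-associated collagens decorate the surface of fibrils. Col12a1, the chain of collagen XII, stood at 24.9, 23.4 and 31.0 FPKM at 3 months, at 21.95, 21.1 and 22.3 at 19 months and at 32.4, 32.1 and 38.0 at 24 months. The 3 ages did not overlap, with 19 months lowest and 24 months highest. Its F test gave an adjusted p of 0.0453 with limma. The single comparisons did not pass: the log2 change was 0.62 ± 0.14 at 24 against 19 months (adjusted p = 0.0507), 0.36 ± 0.14 at 24 against 3 months (adjusted p = 0.1504) and -0.26 ± 0.14 at 19 against 3 months (adjusted p = 0.396). The F test was passed in 1 of the 9 fits that left out a library, the fit without 3 months replicate 3 (adjusted p = 0.0363), and gave 0.172 without 24 months replicate 4. It was also lost with all rows of the table (0.134) and without the filter on low values (0.0993). Col16a1 varied more between libraries of an age than between ages, from 5.60 to 14.3 FPKM at 19 months alone (F test adjusted p = 0.929). Col14a1 stood at 0.526 to 1.33 FPKM at 3 months, 0.267 to 0.458 at 19 months and 0.0333 to 0.314 at 24 months and was not tested. Of the other members of this class, Col20a1 and Col22a1 reached at most 0.496 and 0.353 FPKM, and Col9a2, Col9a3 and Col19a1 were at most 0.137 FPKM.

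Fibrillar collagens form the tensile fibrils of dermis and other connective tissue, and 4 of the 11 fibrillar members could be tested. Col1a2, the alpha 2 chain of collagen I, stood at 4.46, 6.01 and 6.92 FPKM at 3 months, at 10.7, 8.94 and 10.5 at 19 months and at 10.3, 8.24 and 8.43 at 24 months. Every library of the later ages lay above every 3-month library, and 19 and 24 months overlapped. Its F test gave an adjusted p of 0.0495 with limma. The log2 change was 0.71 ± 0.17 at 19 against 3 months (adjusted p = 0.0528, fold 1.64 with a 95% interval of 1.27 to 2.12) and 0.56 ± 0.17 at 24 against 3 months (adjusted p = 0.0807). Like that of Col12a1, the F test of Col1a2 was passed only without 3 months replicate 3 (adjusted p = 0.0461) among the 9 fits that left out a library, and the highest value was 0.170, without 3 months replicate 1. With all rows it gave 0.147 and without the filter 0.139.

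Its partner in collagen I stood lower in every library. Col1a1, the alpha 1 chain, stood at 0.944, 1.18 and 1.21 FPKM at 3 months, at 0.625, 0.687 and 0.828 at 19 months and at 1.79, 0.333 and 0.711 at 24 months. Its log2 change was -0.30 ± 0.24 at 19 against 3 months (limma adjusted p = 0.572) and -0.19 ± 0.24 at 24 against 3 months (adjusted p = 0.694). The library with the highest Col1a1, 24 months replicate 2, was also the one with the highest Col3a1 (0.440 FPKM) and the highest levels of the fibroblast proteoglycans decorin and lumican (Dcn at 3.18 and Lum at 0.878 FPKM). Without Fbln1, its fibroblast markers summed to 10.5 FPKM, the highest of the 9 libraries. The part of other cell types in these levels was not tested. Col3a1, the chain of collagen III that usually accompanies collagen I in dermis, was listed at 0 in 5 libraries and was at most 0.148 FPKM in the other 3.

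Collagen V controls the diameter of collagen I fibrils. Col5a2 held a level of 10.8 to 14.9 FPKM over the 9 libraries, with means of 13.5 ± 1.05, 13.2 ± 1.44 and 13.1 ± 2.09 at 3, 19 and 24 months (SD, n = 3 each). Its log2 change at 24 against 3 months was -0.05 ± 0.16 (limma adjusted p = 0.886, interval of the fold 0.767 to 1.22). Col5a1 was far lower, at 0.551 to 1.69, 0.910 to 1.58 and 0.212 to 0.814 FPKM, and its 24-month libraries all lay under those of 19 months (log2 -0.53 ± 0.24, adjusted p = 0.364). Col27a1 lay between 0.211 and 0.499 FPKM. The remaining fibrillar members, Col2a1, Col5a3, Col11a1, Col11a2 and Col24a1, were each listed at 0 in at least 4 libraries and were at most 0.115 FPKM in the rest.

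**Figure D3:**
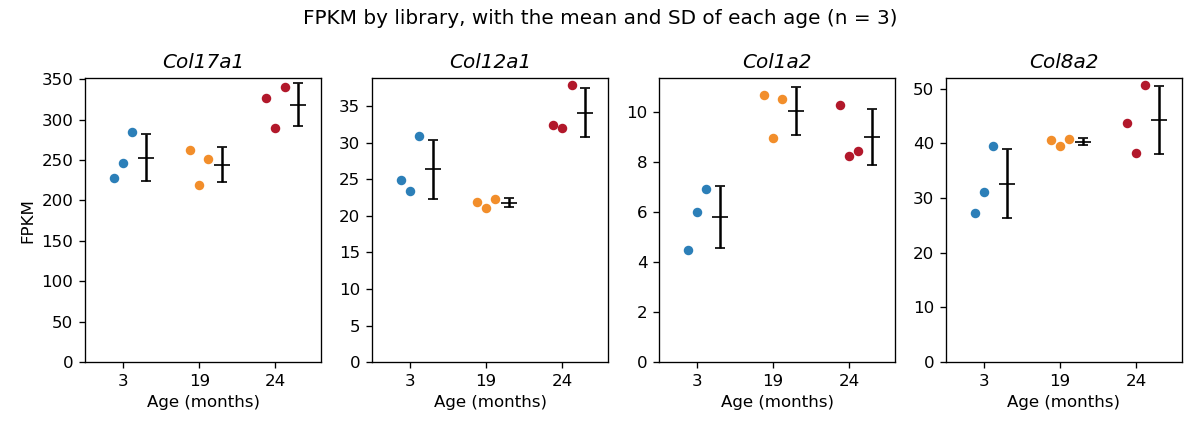
FPKM of Col17a1, Col12a1, Col1a2 and Col8a2 in each library by age, with the mean and SD of each age (n = 3) as bars beside the points and axes from 0. Col12a1 is lowest at 19 months, Col1a2 is lowest at 3 months, and the 24-month points of Col17a1 lie above the rest.

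The sheet-forming chains of the basement membrane, Col4a1 to Col4a6, were all tested and none passed. Col4a5 and Col4a6, the chains of the epithelial network, were the highest of the 6. Col4a6 stood at 6.09, 6.27 and 6.60 FPKM at 3 months, at 4.29, 4.66 and 4.82 at 19 months and at 4.57, 6.63 and 5.94 at 24 months. Its 19-month libraries all lay under the 3-month ones (log2 -0.39 ± 0.17, limma adjusted p = 0.270), and 24 months spanned both. Col4a5 showed the same order of means at 7.20 ± 1.31, 5.42 ± 0.574 and 6.42 ± 2.32 FPKM (SD, n = 3 each). Col4a3, a chain known from kidney basement membrane, stood at 3.43 ± 0.372, 2.29 ± 0.404 and 2.87 ± 0.477 FPKM (log2 -0.43 ± 0.18 at 19 against 3 months, adjusted p = 0.250). Of the 6 chains, 1 was above 0 at 19 against 3 months, with a median log2 change of -0.29, beside 50.8% of all genes. At 24 against 3 months 2 of the 6 were above 0, with a median of -0.16, beside 49.5% of all genes, and at 24 against 19 months 4 of the 6, with a median of 0.20, beside 46.8%.

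Anchoring fibrils of collagen VII tie the basement membrane to the dermis. Col7a1 stood at 11.04, 7.53 and 12.2 FPKM at 3 months, at 8.55, 7.49 and 7.64 at 19 months and at 10.5, 8.68 and 5.60 at 24 months, with overlap between all ages (F test adjusted p = 0.525). Col18a1, a basement membrane proteoglycan and the source of endostatin, ranged from 22.8 to 47.1 FPKM within 3 months alone and did not differ beyond that spread (F test adjusted p = 0.696). Its class mate Col15a1 was listed at 0 in 7 of 9 libraries.

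Beaded filaments of collagen VI are usually built from an alpha 1, an alpha 2 and a longer alpha 3-type chain. Col6a1 stood at 32.3, 42.3 and 48.3 FPKM at 3 months, at 47.8, 48.7 and 50.9 at 19 months and at 42.2, 45.4 and 41.1 at 24 months, and Col6a2 at 5.16 to 6.44, 6.87 to 7.75 and 6.33 to 8.64 FPKM. Neither passed limma's F test (adjusted p = 0.440 and 0.408). The genes of that long chain were listed near 0. Col6a3 was at most 0.255 FPKM and listed at 0 in 4 libraries, Col6a4 and Col6a5 were each listed at 0 in 8, and Col6a6 was at most 0.181 FPKM.

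Short-chain collagens VIII and X form hexagonal networks. Col8a2 stood at 27.2, 31.2 and 39.6 FPKM at 3 months, at 40.6, 39.5 and 40.8 at 19 months and at 43.7, 38.3 and 50.7 at 24 months. The 3-month libraries overlapped with both later ages, and the log2 change of 0.43 ± 0.15 at 24 against 3 months did not pass (limma adjusted p = 0.118). Col8a1, its partner chain, had 3-month values of 1.04, 1.47 and 1.19 FPKM and later ones of 0.339 to 0.947 FPKM (log2 -0.55 ± 0.19 at 24 against 3 months, adjusted p = 0.116). It entered the test only through its 3-month libraries, so its lack of overlap had to arise there and supports nothing. Col10a1 was at most 0.0882 FPKM, and Col28a1 was listed at 0 in 8 libraries.

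Groups without overlap were found for 8 of the 20 tested members at 19 against 3 months, 2 of them higher at 19 months (Col1a2 and Col6a2) and 6 lower (Col12a1, Col4a5, Col4a6, Col4a3, Col1a1 and Col8a1). In all genes tested the shares were 11% higher and 11.6% lower. At 24 against 3 months 3 members were higher without overlap (Col17a1, Col12a1 and Col1a2) and 2 were lower (Col4a1 and Col8a1), beside 10.6% and 12% of all genes. At 24 against 19 months 3 were higher (Col17a1, Col12a1 and Col23a1) and 2 lower (Col6a1 and Col5a1), beside 7.94% and 10.4%. The 3 comparisons share libraries in pairs. Col8a1 entered the test only through its 3-month libraries, so its places in these counts support nothing. Col1a1 and Col23a1 reached 1 FPKM in no 19-month library, and Col5a1 in no 24-month library. These genes passed the filter at least partly through the higher age of their comparison, which favours such a gap.

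Chains that join in 1 molecule, or that sit side by side in the genome, were compared as ratios of FPKM within each library, over 6 pairs, with a test added after the data were seen. Col4a2 and Col4a1 form the common collagen IV molecule. Their ratio was 1.002, 1.028 and 1.004 at 3 months, 1.42, 1.48 and 1.23 at 19 months and 1.32, 1.53 and 1.37 at 24 months. The 3-month libraries were near equal in both chains and all lay under the 6 later ones. An exact permutation test of the log2 ratio over the 3 ages (1680 arrangements, smallest possible p = 0.00357) gave p = 0.0321, and 0.193 after adjustment over the 6 pairs, so the difference did not pass. The unadjusted p stayed between 0.0214 and 0.0393 in the 9 exact permutation tests that left out a library. Both genes start within the shared window printed above, and no source used here tells whether counting used strand, so reads near their starts cannot be assigned with certainty.

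Col1a2 exceeded Col1a1 in every library, by 4.73, 5.09 and 5.73 times at 3 months, by 17.1, 13.01 and 12.7 times at 19 months and by 5.73, 24.8 and 11.9 times at 24 months. The 19-month libraries all lay above the 3-month ones, and 24 months spread over both (exact permutation p = 0.0786, adjusted p = 0.236). Col5a2 exceeded Col5a1 by 8.30 to 70.7 times and Col6a1 exceeded Col6a2 by 4.88 to 7.49 times, without an age difference that passed (exact permutation adjusted p = 0.279 and 0.243). The highest ratios to Col1a1 and to Col5a1, 24.8 and 70.7, were both in 24 months replicate 3. Col1a1 and Col5a1 stood at only 0.333 and 0.212 FPKM there, and no pseudocount was added. Col4a5 to Col4a6 had ratios of 0.926 to 1.34, with 3 and 24 months each spanning all of 19 months (exact permutation adjusted p = 0.786), and Col4a3 to Col4a4 lay at 1.21 to 3.52 (exact permutation adjusted p = 0.279).

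**Figure D4:**
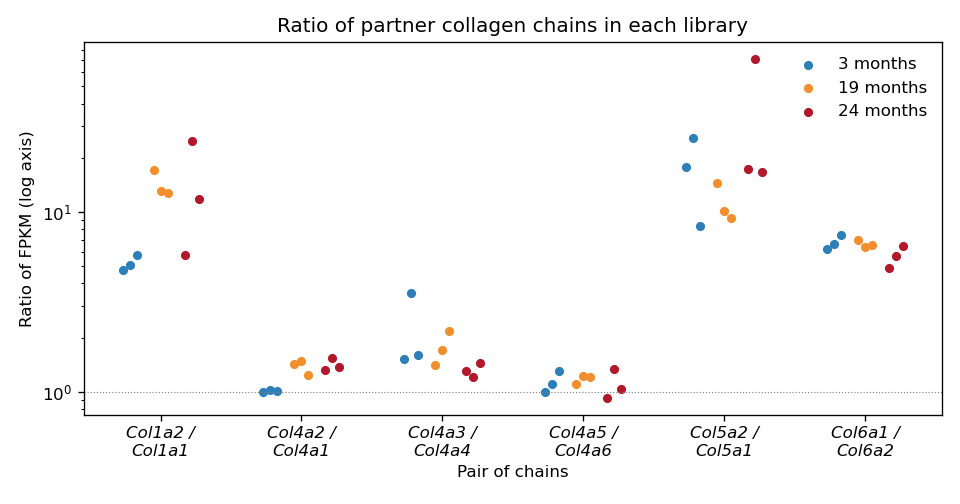
Ratio of FPKM between 2 partner chains in each of the 9 libraries, on a log axis, for 6 pairs, coloured by age. The 3-month points of Col4a2 over Col4a1 sit at 1.002 to 1.028, under all later points, and Col4a5 over Col4a6 runs from 0.926 to 1.34 with overlapping ages.

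Genes that modify and fold collagen chains ranged widely in level. Of 18 listed enzymes and chaperones, 11 had a mean above the median tested gene (10.9 FPKM) and 7 below it, and 4 were too low to test. The 14 tested were led by Serpinh1 (the collagen chaperone HSP47), Ppib (cyclophilin B) and P4hb (a subunit of prolyl 4-hydroxylase), at means over all libraries of 146, 125 and 124 FPKM. At 24 against 3 months 1 was called higher and 1 lower, where 1.5% and 2.34% of all genes were. Crtap, a subunit of the prolyl 3-hydroxylase complex, rose from 19.5, 19.98 and 27.0 FPKM to 43.4, 35.4 and 45.5 FPKM (log2 0.88 ± 0.18, limma adjusted p = 0.0137). Plod3, a lysyl hydroxylase that also glycosylates collagen, fell from 29.1, 37.6 and 29.2 to 20.7, 23.5 and 20.3 FPKM (log2 -0.54 ± 0.14, adjusted p = 0.0441). The groups did not overlap for either gene. Fkbp10, a prolyl isomerase of the endoplasmic reticulum, fell from 33.8, 32.2 and 34.0 FPKM at 19 months to 20.9, 23.1 and 18.2 at 24 months (log2 -0.67 ± 0.14, adjusted p = 0.0339), and stood at 26.8, 32.7 and 30.2 at 3 months. Without 24 months replicate 4 these calls were lost (adjusted p = 0.0723, 0.155 and 0.184). The call of Plod3 was kept in 1 of 9 fits that left out a library, that of Crtap in 7 (lost also without 3 months replicate 2, 0.0687) and that of Fkbp10 in 4 (lost also without 3 months replicate 2 and without each 19-month library, 0.0510 to 0.1498). All 3 calls were lost with all rows of the table, at 0.0888, 0.0959 and 0.170, and without the filter on low values, at 0.0700, 0.0729 and 0.128. The call of Plod3 was also lost with median centring (0.0644) and with only the libraries of 3 and 24 months in the fit (0.0789). Serpinh1 was widely spread, at 128.5 to 238 FPKM at 3 months and 64.8 to 139.9 at 24 months (adjusted p = 0.114).

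Of 18 genes of secretion, processing and crosslinking, 17 were in the table under the symbols searched and 10 were tested. The export factor Ctage5 (26.8 FPKM over all libraries), the procollagen proteinase Bmp1 (8.11) and the proteinase enhancer Pcolce2 (5.80) had the highest means, and none of them passed at any comparison. Pxdn, peroxidasin, which forms the sulfilimine crosslinks of collagen IV, fell from 2.87, 3.13 and 3.68 FPKM at 3 months to 1.09, 1.32 and 1.24 at 24 months (log2 -0.93 ± 0.18, limma adjusted p = 0.0121). That call was kept in all 9 fits that left out a library and lost with all rows of the table (0.0545). Summed endothelial markers stood at 4.71 to 6.83, 4.80 to 5.14 and 1.92 to 3.11 FPKM at the 3 ages. Of these 6 markers 5 stayed under 1 FPKM in every library, with Emcn listed at 0 in all 9 and Cdh5 in 8. Only Egfl7 was tested, so the sum does not describe the markers as a group. The part of endothelial cells in the level of Pxdn was not tested. Tll1, a proteinase related to Bmp1, fell from 1.61, 2.72 and 2.59 FPKM at 3 months to 0.720, 0.658 and 0.318 at 19 months (log2 -1.07 ± 0.22, adjusted p = 0.0231, and 0.119 without 19 months replicate 3, the highest of 4 fits without a library that lost the call) and stood at 1.04 to 2.21 FPKM at 24 months. The call of Tll1 was lost with all rows (0.143) and without the filter (0.108). No 19-month library of Tll1 reached 1 FPKM. It passed the filter only through 3 and 24 months, where it was higher, which favours such a gap. Lox, the founding lysyl oxidase, was listed at 0 in all 9 libraries.

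Among 10 collagen receptors 4 were tested and 0 passed limma's test at any comparison, where 1.56%, 3.84% and 0.93% of all genes did. At an unadjusted p under 0.05 there were 1, 1 and 0 of the 4, beside 15.7%, 21.6% and 12.8% of all genes. Ddr1, a receptor tyrosine kinase for collagen, held 40.1 to 56.8 FPKM and the integrin chain Itgb1 39.9 to 59.2 FPKM. Itga2, its partner in a collagen-binding integrin, stood at 6.74 ± 0.633, 4.54 ± 0.771 and 4.12 ± 0.646 FPKM (SD, n = 3 each; log2 -0.60 ± 0.17 at 24 against 3 months, adjusted p = 0.0660). Of 15 genes of collagen breakdown and its inhibitors in the table, 7 were tested and 0 passed with limma, with 0, 2 and 1 at an unadjusted p under 0.05, beside the same shares of all genes. Timp2, an inhibitor of matrix metalloproteinases, Mmp2, a gelatinase, and Timp3 had the highest means, at 83.0, 29.8 and 28.1 FPKM. Mmp2 stood at 14.3, 23.3 and 25.4 FPKM at 3 months and at 44.8, 39.9 and 34.8 at 24 months (log2 0.92 ± 0.25, adjusted p = 0.05002). Adam9, Adam10 and Adam17, proteinases known to shed collagen XVII from keratinocytes, did not pass at any comparison (smallest adjusted p = 0.302). Lox and these 3 genes were chosen after their values were seen.

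Hemidesmosome and laminin partners of collagen XVII were compared with it. Of 8 tested, Lamb3, a chain of the main laminin of the epidermal basement membrane, passed lower at 19 against 3 and at 24 against 3 months, where 0.964% and 2.34% of all genes did, and no other member passed. At an unadjusted p under 0.05 there were 5, 4 and 2 of the 8 in the 3 comparisons, beside 15.7%, 21.6% and 12.8% of all genes. At 19 against 3 months 2 of the 8 were above 0, with a median of -0.29, beside 50.8% of all genes. At 24 against 3 months 1 of the 8 was above 0, with a median of -0.12, beside 49.5%. At 24 against 19 months 3 of the 8 were, with a median of -0.045, beside 46.8%. Lamb3 stood at 249.0, 269.6 and 216.9 FPKM at 3 months, 169.9, 140.4 and 118.5 at 19 months and 111, 113 and 90.9 at 24 months (log2 -1.22 ± 0.15 at 24 against 3 months, limma adjusted p = 0.00129). The call at 19 against 3 months (log2 -0.78 ± 0.15, adjusted p = 0.0163) was lost in 4 of 9 fits that left out a library, up to 0.105 without 19 months replicate 3, and with all rows (0.141) and without the filter (0.0909). That at 24 against 3 months was kept in all 9 and in both of these settings. Col17a1 stood at means of 253 ± 29.0, 244 ± 22.02 and 319 ± 26.2 FPKM at the same ages (SD, n = 3 each). The tetraspanin Cd151 and the linker gene Dst, the next in level, had changes at 24 against 3 months of 0.72 ± 0.26 and -0.02 ± 0.16 (adjusted p = 0.125 and 0.957).

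**Figure D5:**
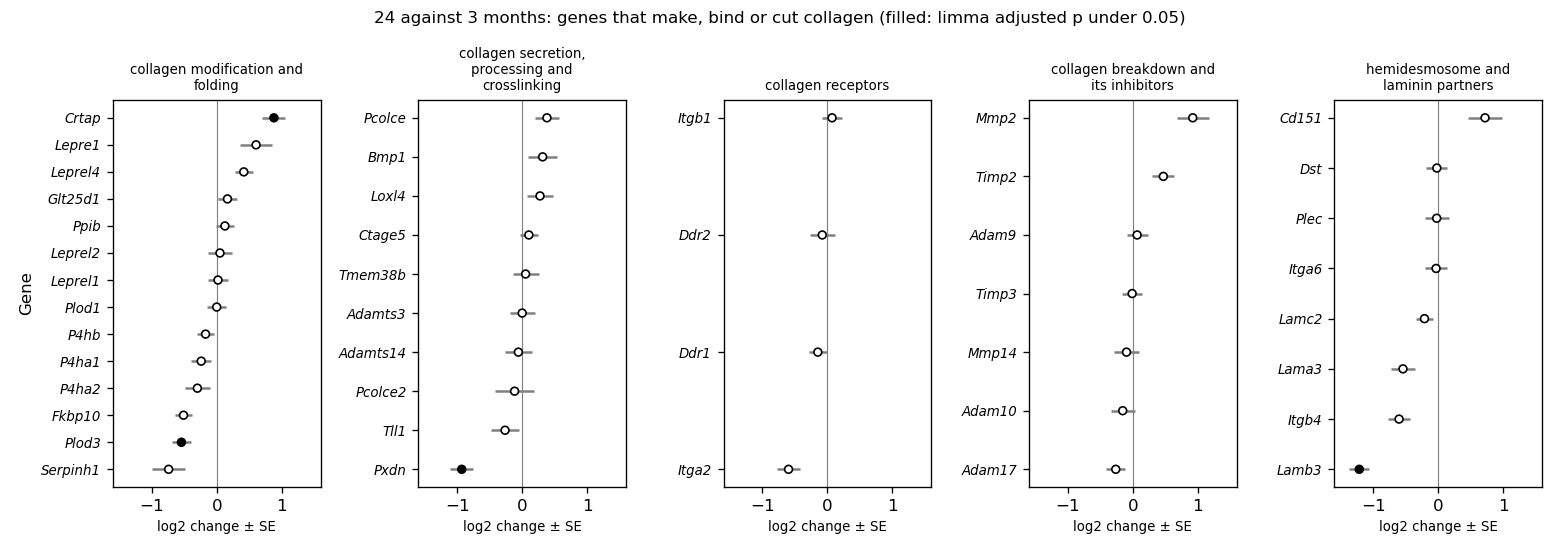
The log2 change at 24 against 3 months, with limma's standard error as bars, of the tested genes in 5 lists that make, bind or cut collagen or join it in the hemidesmosome. Filled points passed an adjusted p of 0.05: Crtap higher, and Plod3, Pxdn and Lamb3 lower.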

How the data were processed

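Messenger RNA levels of sorted hair follicle stem cells were taken as FPKM, as the authors deposited them in 1 table for 9 libraries. Per the submitters' processing notes, TopHat and Cuffdiff were used with build NCBIM37. No source used here gives versions, read depth or strand use. Gene types came from GENCODE M21 by Ensembl ID, for 32935 of 37980 rows.

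From the deposited FPKM, log2(FPKM + 1) was computed and fitted with limma 3.58.1 in R 4.3.3 (mean-dependent prior variance, all 9 libraries) over 11509 protein-coding genes that reached 1 FPKM in 3 or more libraries, leaving out the rows listed at 0 throughout 1 age but at 5 FPKM or more in every library of another. Contrasts and the F test over ages were adjusted by Benjamini-Hochberg at 0.05. The fit was tested on simulated data. Chain ratios were compared by an exact permutation test that was added after the data were seen.

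Named were members passing any comparison, members averaging 5 FPKM at any age, partner chains, members nearest the filter and the highest of each class. From the other lists, genes passing and up to 3 of highest mean were named. Members and lists were chosen with earlier results of these data known. Alternatives were 9 other settings and 9 fits without a library.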

Additional observations from a re-analysis of the deposited data

How the results depend on the processing

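Across the alternatives, the 80 results on single collagen genes gave 1373 values on the same side of the adjusted threshold. Another 24 lost a call and 7 gained one, and none changed sign with a call on either side. Only the F tests of Col12a1 and Col1a2 were calls to begin with, so no other result could lose one. Each of these 2 was lost in 8 of 9 fits that left out a library and in 4 of 8 other settings. At 19 against 3 months the 0 collagen calls became 1 with a robust prior variance, 1 with quantile normalisation and 1 with median centring (Col1a2 each time), and 0 to 1 with a library left out. At 24 against 19 months they became 1 with a robust prior variance (Col12a1) and 0 to 1 with a library left out. At 24 against 3 months they stayed at 0. The 2 collagen calls of the F test became 0 with all rows of the table, 0 without the filter on low values, 1 with at least 1 FPKM in 6 libraries, 1 with quantile normalisation and 0 to 2 with a library left out.

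Over all genes, the 180 calls at 19 against 3 months became 40 with all rows and 53 without the filter (69 to 230 with a library left out). The 442 at 24 against 3 months became 29 and 118 (136 to 456), the 107 at 24 against 19 months became 7 and 0, and 59 with quantile normalisation (20 to 216), and the 523 of the F test became 32 and 59 (190 to 541). Median centring turned the 69 higher and 111 lower calls at 19 against 3 months into 89 and 91, and the 173 and 269 at 24 against 3 months into 216 and 190.

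Replicate numbers in the labels were examined as a possible pairing of libraries between ages. Deviations of the 7 same-numbered pairs correlated at -0.197 to 0.188, 3 of them above 0.1. Of 3 libraries of 3 months, 1 correlated best with its own number at 19 months. With so few libraries these correlations cannot settle whether the libraries were paired. With the replicate number as a block, the F test called 0 collagen genes (adjusted p = 0.165 for Col12a1 and 0.0998 for Col1a2 with limma), and the 442 genes at 24 against 3 months became 158. Calls lost with the block among the other named genes were those of Crtap (0.0926), Plod3 (0.158), Fkbp10 (0.113), Acta2 (0.103) and Egfl7 (0.0617) in the comparisons given above.

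With 3 libraries an age and no recorded depth, small changes and low genes are limited by the spread between libraries. The 6 chain ratios, judged here at an unadjusted p, gave 68 values on the same side and 4 that crossed it. The ratio of Col1a2 to Col1a1, chosen like its alternatives after seeing the data, gave an unadjusted exact permutation p of 0.0143 with a pseudocount of 1, 0.0250 without 24 months replicate 2 and 0.00714 without 24 months replicate 3, and that of Col6a1 to Col6a2 gave 0.0286 without 24 months replicate 4. The causes of these shifts were not tested.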
